A study of Danio rerio with 40 samples.

Results

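The 7 genes described here encode ligands of the bone morphogenetic protein (BMP) family, and were chosen by name as bmp2a, bmp2b, bmp4, bmp6, bmp7a, bmp10 and gdf6a. Each matched 1 of the 32520 genes in the deposited count table, and all 7 passed the filter on low counts that left 22894 genes for testing. They were compared between 5 pools of quadruple-knockout zebrafish (qKO, smad3a-/-;smad3b-/-;smad6a-/-;smad6b-/-) and 5 pools of wild-type control cousins. Every pool held 5 whole embryos taken at 5 days post fertilization, and both genotypes had been raised at 27°C in E3 medium to which methylene blue was added. The controls were cousins and not siblings of the knockouts, and a pool averages over 5 animals and all tissues. The series, whose title concerns smad6-related aortic disease, holds 30 further samples that were not analysed here.

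BMP ligands are secreted as dimers and are cut from larger precursors by proprotein convertases. They bind paired type I and type II serine/threonine kinase receptors, which phosphorylate Smad1, Smad5 and Smad9, and these enter the nucleus with Smad4. Smad6 is an intracellular inhibitor of this branch, whereas Smad3 carries the signals of TGF-beta and activin. In zebrafish, bmp2b and bmp7a pattern the dorsoventral axis of the early embryo, and the ligands are used again later in heart, eye, inner ear, fins and skeleton.

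The libraries held between 16062147 and 191289475 counts. Within each genotype, pools 1 and 2 stood apart from pools 3 to 5 in the level of the circadian repressor gene nr1d1. The labels name no batch for either set, and their separation over all genes was not tested. The level of nr1d1 was 334 and 352 CPM (counts per 1000000 library counts, with libraries scaled by TMM) in qKO pools 1 and 2. In qKO pools 3 to 5 it was 1.59 to 2.62 CPM. In control pools 1 and 2 it stood at 8.94 and 8.45 CPM, and in control pools 3 to 5 at 42.1 to 48.0 CPM. Every p-value over 5 pools treats the pools of a genotype as interchangeable, so the members' values are also given within each set. The sets are matched between the genotypes by pool number alone. Since nr1d1 ran in opposite directions in qKO and control pools, a set of one genotype is not shown to correspond to that of the other. Of the targeted genes, smad3a stood at 8.81 to 12.8 CPM in qKO pools and 37.1 to 46.1 CPM in controls, and smad3b at 5.98 to 6.99 CPM in qKO pools and 13.3 to 14.5 CPM in controls. The smad6 transcripts were higher in the knockouts, with smad6a at 35.9 to 42.6 CPM in qKO pools and 27.6 to 34.0 CPM in controls, and smad6b at 36.0 to 42.2 CPM in qKO pools and 24.1 to 27.4 CPM in controls. Transcripts of all 4 targeted genes were still counted in qKO pools, so the loss of each rests on the labels. Markers of heart, eye, liver, cartilage and bone, inner ear, endothelium, skin, skeletal muscle and neurons were all detected.

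Of the 7 ligands, bmp2a and gdf6a fell in the knockouts, and the other 5 did not pass the test at an adjusted p of 0.05 (quasi-likelihood F-test of edgeR, Benjamini-Hochberg over all tested genes). Among all tested genes 25.8% were called, 12.5% lower and 13.4% higher, so 2 of 7 members called is near the background share. The median log2 fold change of the members was -0.06, beside 0.03 for all tested genes, and 5 of the 7 values were negative. No member lay on a chromosome that carries a targeted gene in the RefSeq table of GRCz12tu. Since the libraries are bulk RNA, fewer cells of a type and less RNA per cell cannot be told apart for any gene below.

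**Figure D1:**
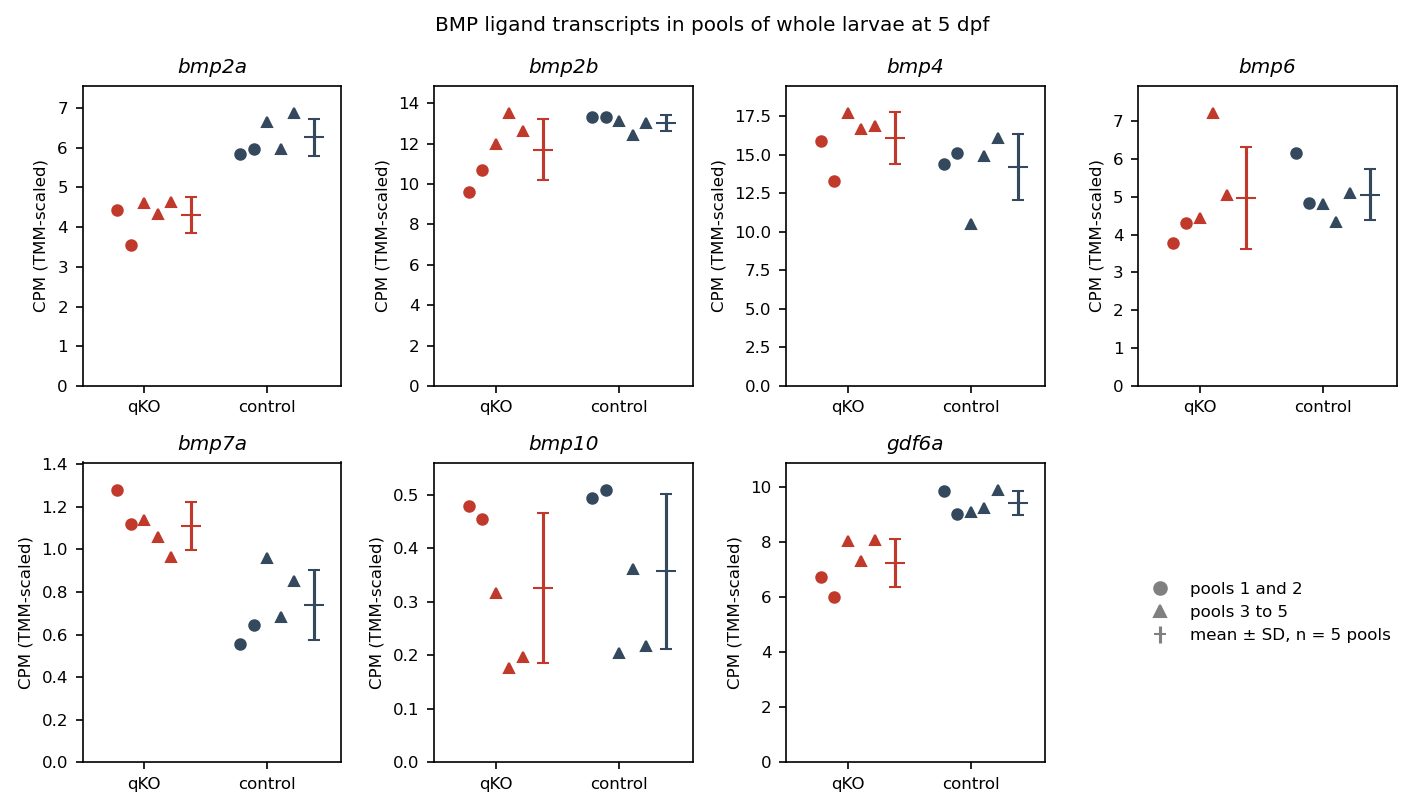
Level of each BMP ligand transcript in CPM (scaled by TMM, linear axis from 0) in 5 qKO pools (left) and 5 control pools (right) of whole larvae. Circles are pools 1 and 2, triangles are pools 3 to 5, and the bar beside each group is the mean ± SD. For bmp2a and gdf6a all qKO pools lie below all control pools, and for bmp7a the groups are separated by 0.963 against 0.961 CPM. Of all tested genes 18.0% were likewise free of overlap. The groups overlap for gdf6a with library totals, and for bmp7a with DESeq2 size factors or upper-quartile scaling.

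The paralogs bmp2a and bmp2b and the related gene bmp4 encode the ligands closest to mammalian BMP2 and BMP4. Transcripts of bmp2a (ENSDARG00000013409) were measured at 4.42, 3.55, 4.62, 4.34 and 4.64 CPM in qKO pools 1 to 5, against 5.85, 5.97, 6.64, 5.96 and 6.87 CPM in control pools 1 to 5. All 5 qKO pools lay below all 5 controls, and 18.0% of all tested genes were likewise free of overlap between the genotypes. The mean was 4.31 ± 0.447 CPM in qKO pools and 6.26 ± 0.463 CPM in controls (SD, n = 5 each), a ratio of 0.687 (95% interval 0.582 to 0.811). The log2 fold change was -0.54 (SE 0.11, adjusted p = 0.00382 by edgeR). Behind these levels stand 95 to 920 counts per pool.

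Its paralog bmp2b (ENSDARG00000041430), the swirl gene of zebrafish, stood at 9.60, 10.7, 12.0, 13.5 and 12.6 CPM in qKO pools 1 to 5, against 13.3, 13.3, 13.1, 12.4 and 13.0 CPM in control pools 1 to 5. The groups overlapped, with 3 qKO pools below every control and pool 4 above every control. On the log2 scale the change was -0.16 (SE 0.10, 95% interval -0.36 to 0.05, adjusted p = 0.246 by edgeR). The spread differed between the genotypes, with a coefficient of variation of 13.0% in qKO pools and 3.02% in controls. Counting error alone would give 4.65% in qKO pools and 4.73% in controls.

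The level of bmp4 (ENSDARG00000019995), which acts in heart valves and inner ear, was 15.9, 13.3, 17.7, 16.7 and 16.9 CPM in qKO pools 1 to 5, against 14.4, 15.1, 10.5, 14.9 and 16.1 CPM in control pools 1 to 5. In qKO pools 3 to 5 it exceeded every control, and qKO pools 1 and 2 lay among the controls. The change was 0.18 on the log2 scale (SE 0.12, 95% interval -0.07 to 0.43, adjusted p = 0.283 by edgeR). Leaving out control pool 3, the lowest of all 10 pools, put it at 0.08 (adjusted p = 0.557, edgeR).

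Transcripts of gdf6a (ENSDARG00000053479), the radar gene, which in zebrafish sets dorsal identity in the retina, stood at 6.73, 6.01, 8.03, 7.30 and 8.08 CPM in qKO pools 1 to 5. In control pools 1 to 5 they stood at 9.86, 9.02, 9.09, 9.24 and 9.90 CPM. The groups did not overlap, except with scaling by library totals. The mean was 7.23 ± 0.878 CPM in qKO pools and 9.42 ± 0.426 CPM in controls (SD, n = 5 each), a ratio of 0.770 (95% interval 0.661 to 0.896). The log2 fold change was -0.38 (SE 0.10, adjusted p = 0.0165 by edgeR). With library totals it was -0.29 and the call was lost (adjusted p = 0.0838, edgeR). Of 6 eye markers, listed together for dorsal retina and lens, tbx5a and aldh1a2 rose by 0.76 and 0.38. The marker tbx2b changed by 0.14 (adjusted p = 0.322, edgeR). The pools are of whole larvae, so the rises of tbx5a and aldh1a2 are not shown to lie in the retina. The list of BMP target genes also holds tbx5a and tbx2b. The rod opsin rho fell by 1.11, and the lens crystallins cryaa and crybb1 fell by 1.07 and 0.58. These changes are all log2, and all but that of tbx2b had an adjusted p under the threshold (edgeR). The call of aldh1a2 was lost without qKO pool 3 or control pool 1 (adjusted p from 0.0522 to 0.0582, edgeR). In pools 1 and 2 alone tbx5a (0.27), cryaa (-0.64) and crybb1 (-0.17) did not pass, and in pools 3 to 5 alone aldh1a2 (0.17) did not (edgeR). The summed level of these 6 markers was 2000.0 to 3390 CPM in qKO pools and 3800.0 to 5950 CPM in controls. Most of that sum was rho (894 to 3600 CPM over the 10 pools) and crybb1 (858 to 2150 CPM). Since tbx5a stood at only 1.37 to 4.29 CPM, tbx2b at 53.6 to 81.9 CPM and aldh1a2 at 49.7 to 90.7 CPM, the sum says little about these genes. The part of these markers in the fall of gdf6a was not tested.

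The members of the Bmp6 and Bmp7 group, bmp6 and bmp7a, did not pass the test. For bmp6 (ENSDARG00000015686), which in mouse induces the iron hormone hepcidin, the qKO pools 1 to 5 were at 3.79, 4.32, 4.45, 7.21 and 5.06 CPM, against 6.16, 4.85, 4.82, 4.34 and 5.11 CPM in control pools 1 to 5. The highest and the lowest pool were both knockouts, and the groups overlapped. The log2 fold change was -0.03 (SE 0.17, 95% interval -0.38 to 0.33, adjusted p = 0.927 by edgeR). The hepcidin gene hamp, chosen after its values were seen, averaged 2.15 ± 1.70 CPM in qKO pools and 10.2 ± 2.22 CPM in controls (SD, n = 5 each). Its fall was -2.18 on the log2 scale (SE 0.49, adjusted p = 0.00986 by edgeR). It was -3.69 in pools 1 and 2 and -1.83 in pools 3 to 5, and the call was lost with each pool set summed to 1 sample (-2.07, adjusted p = 0.558, edgeR). Of 5 liver markers, hamp among them, 3 fell, and the other called ones were fabp10a (-1.98) and tfa (-0.64). In pools 1 and 2 alone tfa did not pass (-0.19, adjusted p = 0.389, edgeR), and in pools 3 to 5 it was at -0.98. The summed level of the 5 was 2950 to 3760 CPM in qKO pools and 3380 to 6180 CPM in controls, and its part in the fall of hamp was not tested.

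For bmp7a (ENSDARG00000018260), the snailhouse gene of zebrafish, the qKO pools 1 to 5 were at 1.28, 1.12, 1.14, 1.06 and 0.963 CPM, against 0.555, 0.644, 0.961, 0.681 and 0.853 CPM in control pools 1 to 5. Every qKO pool lay above every control, although qKO pool 5 and control pool 3 were nearly equal. With library totals the groups were also free of overlap, and with DESeq2 size factors or upper-quartile scaling they overlapped. The log2 fold change was 0.53 (SE 0.19, 95% interval 0.12 to 0.95), with an unadjusted p of 0.0162 and an adjusted p of 0.0583 by edgeR. Without control pool 3 it was 0.64 and passed (adjusted p = 0.0401, edgeR), as it did with library totals (0.63, adjusted p = 0.0214, edgeR). Between 9 and 191 counts per pool lie behind these values. In controls the coefficient of variation of 22.3% was close to the 21.3% of counting error alone.

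Transcripts of bmp10 (ENSDARG00000061769), which in mouse supports growth of the heart wall, were the least counted, with 4 to 39 counts per pool. They stood at 0.478, 0.454, 0.317, 0.177 and 0.197 CPM in qKO pools 1 to 5, against 0.493, 0.509, 0.204, 0.362 and 0.218 CPM in control pools 1 to 5. In both genotypes pools 1 and 2 lay above pools 3 to 5. The 4 counts of qKO pool 4 give a 95% Poisson interval of 0.0482 to 0.453 CPM, which covers counting error only. The log2 fold change was -0.06 (SE 0.39, 95% interval -0.89 to 0.78, adjusted p = 0.932 by edgeR), an interval that spans changes of 0.541 to 1.71 times. The coefficient of variation was 43.2% in qKO pools and 40.6% in controls, where counting error alone would give 29.9% in qKO pools and 28.1% in controls. Of 6 heart markers tested, nkx2.5 rose by 0.84 (adjusted p = 0.00863, edgeR) and 5 did not pass (median of the 6, 0.35). Of these, the myosin gene myh6 was at 0.87 (adjusted p = 0.0605, edgeR), with 0.29 in pools 1 and 2 and 1.39 in pools 3 to 5, where it passed (adjusted p = 5.79e-05, edgeR). The natriuretic peptide gene nppa was at 0.53 (adjusted p = 0.0973, edgeR) and myl7 at -0.07. Their summed level was 64.3 to 100.0 CPM in qKO pools and 62.6 to 78.2 CPM in controls.

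Within the pool sets, the falls of bmp2a and gdf6a were called in each. In pools 1 and 2 (2 against 2), where 21.4% of the tested genes were called, the log2 fold change was -0.59 for bmp2a (SE 0.20, adjusted p = 0.0477, edgeR) and -0.57 for gdf6a (SE 0.17, adjusted p = 0.0231, edgeR). In pools 3 to 5 (3 against 3), where 41.3% were called, it was -0.55 for bmp2a (SE 0.12, adjusted p = 0.00343, edgeR) and -0.30 for gdf6a (SE 0.10, adjusted p = 0.0316, edgeR). No other member was called in either set. The values within the sets were -0.38 and -0.06 for bmp2b, -0.03 and 0.26 for bmp4, -0.41 and 0.15 for bmp6, and 0.96 and 0.29 for bmp7a, with pools 1 and 2 given before pools 3 to 5. The difference between the sets was itself tested with an interaction term, for which 20.0% of all tested genes and none of the 7 members were called (edgeR). The lowest adjusted p among the members was 0.0939, for bmp2b, with an unadjusted p of 0.0258, the only one of the 7 under the unadjusted threshold of 0.05. With each set summed to 1 sample, 2.85% of the genes and no member were called, with log2 fold changes of -0.59 for bmp2a (adjusted p = 0.225, edgeR) and -0.42 for gdf6a (adjusted p = 0.369, edgeR).

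**Figure D2:**
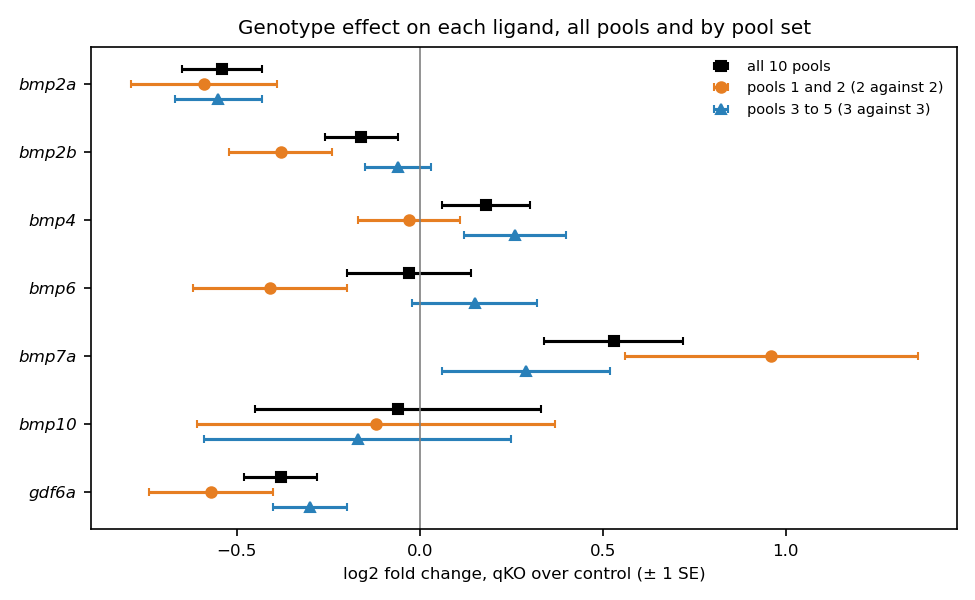
Log2 fold change of each BMP ligand, qKO over control, in all 10 pools (squares), in pools 1 and 2 of each genotype (circles) and in pools 3 to 5 (triangles). Bars are ± 1 SE from edgeR. The values of bmp2a (-0.54, -0.59 and -0.55) lie close together, whereas those of bmp4 and bmp6 lie on either side of 0 in the pool sets.

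Ratios of counts between ligands within a library do not depend on the scaling of the libraries. They compare the genotypes and not the abundance of the ligands, since counts also rise with transcript length. The 5 ratios given here, of 21 possible pairs of members, were chosen after the members' values were seen, and 3 of them contain bmp2a. They are therefore given as descriptions, and the permutation tests run on them are not reported. The bmp4 count per bmp2a count was 3.59, 3.74, 3.83, 3.85 and 3.64 in qKO pools 1 to 5, against 2.45, 2.53, 1.58, 2.5 and 2.34 in control pools 1 to 5. The groups were far apart. The qKO pools lay closer together than counting error alone would give, which was 7.57% for bmp2a and 3.92% for bmp4 in those pools. No meaning is drawn from that narrow band. The mean was 3.73 ± 0.115 in qKO pools and 2.28 ± 0.397 in controls (SD, n = 5 each). The bmp4 count per bmp2b count was 1.39 ± 0.176 in qKO pools and 1.09 ± 0.172 in controls (SD, n = 5 each), and the groups all but touched, with a lowest qKO pool at 1.24 and a highest control pool at 1.23.

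The paralog ratio, bmp2a per bmp2b, was 0.374 ± 0.0552 in qKO pools and 0.481 ± 0.0373 in controls (SD, n = 5 each). The groups overlapped, because qKO pool 1 (0.461) lay above control pools 1 and 2 (0.440 and 0.448). The ratio gdf6a per bmp2b was 0.623 ± 0.0690 in qKO pools and 0.724 ± 0.0363 in controls (SD, n = 5 each). The ratio bmp2a per gdf6a was 0.598 ± 0.0339 in qKO pools and 0.665 ± 0.0514 in controls (SD, n = 5 each), and the groups of both ratios overlapped. Leaving out any 1 of the 10 libraries, an alternative added after the data were seen, turned the direction of none of the 5 differences. For the ratios with bmp4 it could not have done so, since their groups did not overlap.

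Of all reads on the 7 ligands, bmp4 held 35.2% ± 1.9 in qKO pools and 28.8% ± 3.33 in controls (SD, n = 5 each). The share of bmp2a was 9.46% ± 0.707 in qKO pools and 12.8% ± 1.19 in controls, and that of gdf6a 15.8% ± 0.930 in qKO pools and 19.2% ± 0.661 in controls. The share of bmp2b was 25.5% ± 1.77 in qKO pools and 26.6% ± 1.47 in controls, and that of bmp6 was 10.8% ± 2.16 in qKO pools and 10.3% ± 1.19 in controls. For bmp7a it was 2.47% ± 0.449 in qKO pools and 1.52% ± 0.389 in controls, and bmp10 held under 1% in the mean of each genotype. A share depends on the other members, and shares were not tested.

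**Figure D3:**
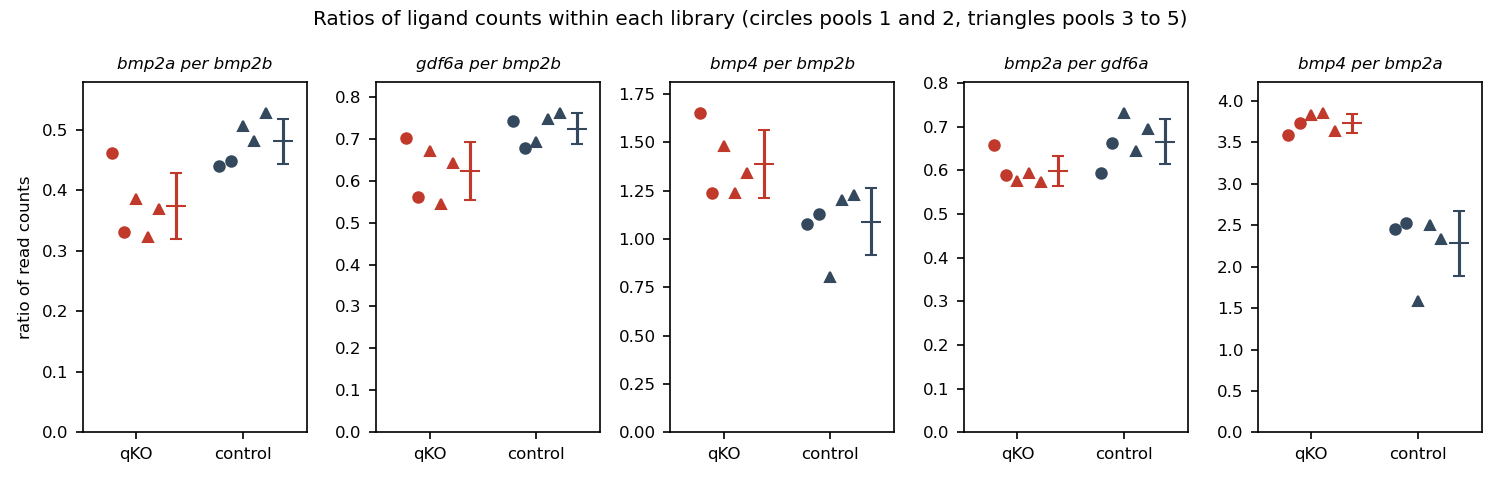
Ratio of read counts of 2 ligands within each library (linear axis from 0), in 5 qKO pools (left in each panel) and 5 control pools (right). Circles are pools 1 and 2, triangles are pools 3 to 5, and bars are the mean ± SD. The 5 qKO pools have 3.59 to 3.85 bmp4 counts per bmp2a count, above the 1.58 to 2.53 of the controls.

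Of 19 other ligands of the BMP and GDF families, 15 passed the filter and 4 of them were called, 3 lower and 1 higher (median log2 fold change of the 15, -0.08). Of all tested genes 25.8% were called. The ligand gene bmp3, whose product in mammals opposes bone formation, stood at 14.8, 15.1, 15.2, 16.6 and 15.9 CPM in qKO pools 1 to 5, against 21.6, 22.7, 21.3, 21.3 and 21.4 CPM in control pools 1 to 5. The groups did not overlap (log2 fold change -0.48, SE 0.07, adjusted p = 0.00041 by edgeR). The myostatin gene mstnb, a brake on muscle growth, fell by 0.56, and bmp8a fell by 0.85 (log2, adjusted p = 0.00281 and 0.00978 by edgeR). The single higher gene was gdf11, named after its values were seen, at 0.75 (adjusted p = 0.0258, edgeR). Its call was lost without any of qKO pools 3, 4 and 5 or control pools 3 and 4 (0.62 to 0.71, adjusted p from 0.0604 to 0.0827, edgeR). Among the closest paralogs of members, bmp7b, the paralog of bmp7a, had a log2 fold change of -0.05 (adjusted p = 0.760, edgeR), gdf6b, the paralog of gdf6a, -0.09 (0.816), and bmp10l 0.10 (0.871). The genes admp, gdf2, gdf9 and mstna had at most 3, 19, 7 and 8 counts in any library and did not pass the filter.

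Of 9 proteases that cut the ligand precursors or release ligands from antagonists, 3 were called, 2 lower and 1 higher (median 0.02). The share called among all tested genes was 25.8%. The tolloid-type protease gene bmp1b fell by 0.49 and the convertase gene pcsk5a by 0.68 (log2, adjusted p = 0.00651 and 0.0129 by edgeR). A second tolloid-type gene, tll1, rose by 0.42 (adjusted p = 0.0401, edgeR), a call kept without qKO pool 2 or control pool 2 and lost without any of the other 8 libraries (0.36 to 0.43, adjusted p from 0.0591 to 0.106, edgeR).

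Among secreted antagonists and modulators, 24 genes were tested and 6 called, 4 higher and 2 lower (median 0.03), beside 25.8% of all tested genes. The noggin gene nog2, whose product binds BMPs and blocks their receptor sites, stood at 21.4 to 22.5 CPM in qKO pools and 13.4 to 15.3 CPM in controls (log2 fold change 0.58, SE 0.07, adjusted p = 0.000144 by edgeR). The follistatin-like gene fstl1b rose by 0.62 (adjusted p = 0.000118, edgeR). The follistatin-like gene fstl3, which in mammals encodes a binder of activin and myostatin, stood at 14.4 to 19.1 CPM in qKO pools and 24.8 to 35.5 CPM in controls (log2 fold change -0.85, SE 0.11, adjusted p = 0.000275 by edgeR). The other called genes, named after their values were seen, were chordin chrd (0.34), bmper (0.53) and sost (-0.22). The calls of chrd and sost were each lost without any of 7 libraries, as listed among the effects of processing.

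Of 19 tested receptors and co-receptors, 5 were called, all higher (median 0.14), and 3 with upper-quartile scaling or with no filter. Of all tested genes 25.8% were called, and 13.4% were called higher. The type I receptor gene bmpr1ab averaged 39.0 ± 1.71 CPM in qKO pools and 31.5 ± 1.17 CPM in controls (SD, n = 5 each), a rise of 0.31 on the log2 scale (SE 0.06, adjusted p = 0.00338 by edgeR). The neogenin genes neo1a and neo1b, which in mammals encode a partner of repulsive guidance molecules, rose by 0.26 and 0.29 (log2, adjusted p = 0.00863 and 0.0118 by edgeR). The remaining called genes, bmpr1aa (0.19) and bmpr1bb (0.35), were named after their values were seen. The call of bmpr1aa was lost without any of 9 libraries, and that of bmpr1bb without any of 8. Of 5 tested receptor-activated and common SMADs, 1 was called, smad1, at 47.9, 51.0, 36.5, 40.8 and 39.9 CPM in qKO pools 1 to 5, against 34.1, 32.3, 37.6, 34.7 and 37.2 CPM in control pools 1 to 5. Its log2 fold change was 0.29 (adjusted p = 0.0347, edgeR), or 0.58 in pools 1 and 2 and 0.06 in pools 3 to 5. The call was kept without qKO pool 3 or control pool 3 and lost without any of the other 8 libraries (0.23 to 0.31, adjusted p from 0.0506 to 0.0980, edgeR).

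Downstream, 24 genes known to respond to BMP in vertebrates were tested, and 7 were called, 6 higher and 1 lower (median 0.14). The inhibitor of DNA binding gene id3 stood at 47.1, 47.6, 43.8, 45.6 and 44.9 CPM in qKO pools 1 to 5, against 30.1, 33.3, 37.5, 34.6 and 34.0 CPM in control pools 1 to 5 (log2 fold change 0.43, SE 0.07, adjusted p = 0.000909 by edgeR). The transcription factor genes atoh8 and id4 rose by 0.40 and 0.39 (log2, adjusted p = 0.00351 and 0.00556 by edgeR). The other higher genes were tbx5a and nkx2.5, given above as eye and heart markers and counted under both lists, and gata4. The gene gata4 was named after its values were seen. Its call was lost without any of qKO pool 4 and control pools 3, 4 and 5 (0.71 to 0.80, adjusted p from 0.0586 to 0.0754, edgeR). Over 22 alternative settings its log2 fold change ranged from 0.16 to 1.36, with an adjusted p of up to 0.65 (edgeR). The single lower gene was hamp, described above with bmp6. The list medians lie beside 0.03 for all tested genes. The list counts lie beside 25.8% of all tested genes called, 12.5% lower and 13.4% higher. With scaling by library totals the median of all genes was 0.11. With each pool set summed to 1 sample, fstl3 alone was called among the genes of these 6 lists (edgeR).

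**Figure D4:**
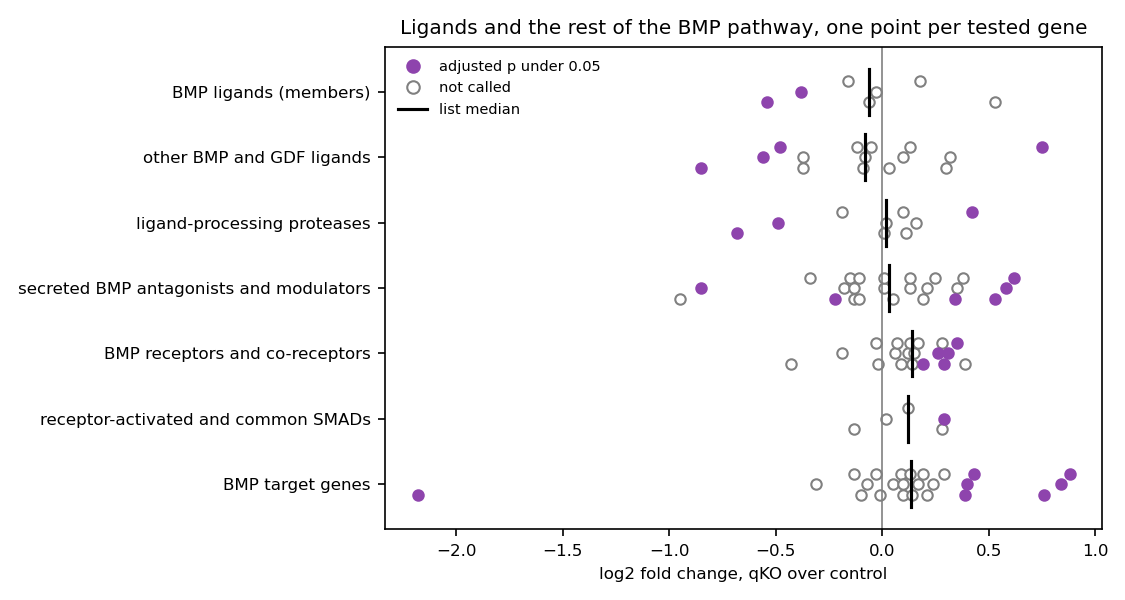
Log2 fold change, qKO over control, of each tested gene in the 7 BMP ligands and in 6 lists of other pathway genes. Filled points had an adjusted p under 0.05 (edgeR), open points did not, and the vertical bar is the list median. Both called members lie left of 0, and the 5 called receptors and co-receptors lie right of it. Of all tested genes 25.8% were called, 12.5% lower and 13.4% higher.

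Finally, the genes whose levels followed the called ligands most closely were sought among 20115 other genes averaging at least 1 CPM. Likeness was the root mean square difference between log2 levels, each centred on its own mean over the 10 pools. Genes picked this way must show log2 fold changes like those of the ligand, so that likeness is no separate result. The ranking was not tested against counting error. For bmp2a, whose own root mean square deviation was 0.294, the nearest genes were sinhcaf (0.0992), which encodes a subunit of a histone deacetylase complex, faima (0.103), related to an inhibitor of Fas-mediated apoptosis, and the inositol hexakisphosphate kinase gene ip6k2a (0.105). Their log2 fold changes were -0.56, -0.52 and -0.50. For gdf6a, with a deviation of 0.228, they were the nucleoredoxin-like gene nxnl2 (0.0733), si:ch1073-342h5.2 (0.0819) and vps9d1 (0.0828), with log2 fold changes of -0.40, -0.32 and -0.34. The call of si:ch1073-342h5.2 was lost without control pool 5 (-0.31, adjusted p = 0.0512, edgeR) and that of vps9d1 without control pool 4 (-0.32, adjusted p = 0.0505, edgeR).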

How the data were processed

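The 10 RNA pools of whole larvae had been purified with Qiagen columns and prepared with the TruSeq Stranded Total RNA kit from 200 ng each, per the labels' protocols. The authors deposited raw read counts per Ensembl gene. The submitters' processing notes name FastQC 0.11.9, Trim Galore 0.6.6, featureCounts, Subread 2.0.0, MultiQC 1.9 and GRCz11. The use of strand is not given in the sources used here, so overlapping genes are uncertain. Totals of 16062147 to 191289475 counts set 3 counts at 0.187 to 0.0157 CPM.

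The test was edgeR 4.0.16 in R 4.3.3 (filterByExpr, TMM, robust quasi-likelihood test, no covariates, Benjamini-Hochberg over 22894 genes, called under 0.05). Intervals of fold changes are at 95%, from the moderated t distribution. Alternatives used DESeq2 1.42.0, limma 3.58.1 and the settings in the closing section. The labels call the pools biological replicates. No 2 pools of a genotype were alike within counting noise, since the chi-square divided by its degrees of freedom was 5.73 or more.

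The members and gene lists were chosen with earlier results of these data known. The ratios, whose permutation tests are not reported, and the interaction test were chosen after the members' values were seen. Genes named by rule were the members, the targeted genes, at most 3 called genes of each pathway list with the lowest p, and the 3 genes most like each called member. Outside this rule, nr1d1, tissue markers, paralogs of members, ligands that did not pass the filter and further called genes were also named. List names that matched no gene name were not used. Lists were described by counts and medians.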

Additional observations from a re-analysis of the deposited data

Results flagged for a closer look

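Of 132 groups of 5 pools examined, 6 held a pool far from the others, where chance alone flags about 1 group in 20. The bmp2a level of qKO pool 2, 3.55 CPM, was low among the knockouts, and without that pool the log2 fold change of bmp2a was -0.48 (adjusted p = 0.00605, edgeR). The bmp3 level of control pool 2, 22.7 CPM, was high among the controls. The myh6 level of qKO pool 2, 7.62 CPM, was high among the knockouts. The bmpr1aa level of control pool 1, 55.6 CPM, was low among the controls. The ratio of bmp2a to gdf6a counts in qKO pool 1, 0.657, was high among the knockouts. The ratio of bmp4 to bmp2a counts in control pool 3, 1.58, was low among the controls.

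The genotype effect differed between the pool sets for 10 of 61 genes named here, none of them a member, by the interaction term in edgeR. Among all tested genes 4569 had such a difference. It is taken on the log2 scale as pools 3 to 5 minus pools 1 and 2, with the sets matched between genotypes by pool number alone. For the pathway genes it was -0.65 for fstl3 (adjusted p = 0.00604, edgeR) and -0.48 for smad1 (adjusted p = 0.0115, edgeR), and 1.9 for hamp (adjusted p = 0.0456, edgeR). For the eye markers it was -1.34 for rho (adjusted p = 0.00036, edgeR), -0.71 for cryaa (adjusted p = 0.0455, edgeR) and 0.40 for tbx2b (adjusted p = 0.0346, edgeR). The liver marker tfa differed by -0.75 (adjusted p = 0.0322, edgeR), the heart marker myh6 by 1.13 (adjusted p = 0.00734, edgeR) and the skin marker krt4 by -0.66. For nr1d1, which is counted among the 10, it was -9.69. The sets were described by the levels of nr1d1, so its difference between them is no separate result.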

How the results depend on the processing

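Across scalings, filters, tools and omitted libraries, bmp2a kept its fall, with a log2 fold change of -0.59 to -0.48 without single libraries (adjusted p from 0.00485 to 0.0141, edgeR). It lost its call only with each pool set summed to 1 sample (-0.59, adjusted p = 0.225, edgeR), a fit of 2 against 2. In that fit gdf6a was at -0.42 (adjusted p = 0.369, edgeR) and 0 members were called. The genes called there numbered 700 (222 higher, 478 lower), with 1 antagonist and 0 other ligands, receptors, proteases, SMADs and targets, and 47 of 52 called genes recomputed lost their call while all 52 kept their sign. With library totals, gdf6a was at -0.29 (adjusted p = 0.0838), bmp7a passed at 0.63 (0.0214), and bmp6 and bmp10 turned to 0.07 (0.819) and 0.02 (0.981, all edgeR). At an adjusted p under 0.01, 1 member was called, gdf6a (-0.38, adjusted p = 0.0165, edgeR) was not, and the counts were 2797 genes (1363 higher, 1434 lower), 2 receptors, 1 protease and 0 SMADs. In pools 1 and 2 alone bmp4 turned to -0.03 (adjusted p = 0.903, edgeR), with 1 other ligand, 2 receptors and 2 SMADs called. Of the pathway genes named, mstnb (-0.58), bmp8a (-0.44), gdf11 (0.25), tll1 (0.10), bmpr1ab (0.21), neo1a (0.21), neo1b (0.27), bmpr1aa (0.19), bmpr1bb (0.41), chrd (0.35), sost (-0.18), nkx2.5 (0.92) and bmper (0.29) also lost their call there. So did tbx5a (0.27), given above among the eye markers. In pools 3 to 5 alone bmp6 turned to 0.15 (adjusted p = 0.507, edgeR), with 9551 genes (4637 higher, 4914 lower), 10 antagonists and 11 targets called. Receptors called were 3 with upper-quartile scaling or with no filter, and SMADs 0 with those and with DESeq2 size factors. The filter at a mean of 1 CPM gave no value for bmp7a and bmp10. Same-numbered pools did not deviate together (r from -0.146 to -0.000172 over 5 pairs), and no pool correlated best with its own number, so the numbers were not taken as pairs. With the replicate number as a block the members called stayed at 2, bmp2a at -0.54 (adjusted p = 0.0141) and gdf6a at -0.38 (0.0375, both edgeR), 4543 genes were called and 0 SMADs. The block also ended the calls of tll1, smad1, gdf11, bmpr1aa, chrd, sost, crybb1, col10a1a, krt4 and si:ch1073-342h5.2 (adjusted p from 0.0548 to 0.100, edgeR). Without single libraries the members called numbered 2 to 3, and gdf6a stayed called (-0.44 to -0.31, adjusted p from 0.0158 to 0.0447, edgeR). In the same fits bmp2b ranged from -0.23 to -0.10, bmp4 from 0.08 to 0.24, bmp6 from -0.20 to 0.05, bmp7a from 0.44 to 0.64 and bmp10 from -0.24 to 0.15, with bmp6 above 0 without qKO pool 1 or 2 or control pool 1, and bmp10 above 0 without qKO pool 4 or 5 or control pool 1 or 2. The genes called numbered 4309 to 6363, with 1966 to 3140 higher and 2160 to 3223 lower, the lowest count of higher genes being without qKO pool 4. The lists gave 3 to 6 other ligands, 3 to 6 receptors, 4 to 6 antagonists, 2 to 3 proteases, 0 to 1 SMADs and 6 to 8 targets, with 3 receptors without any of qKO pools 1, 4 and 5 and control pools 3, 4 and 5. The call of bmpr1aa was lost without any library but qKO pool 2 (0.13 to 0.20, adjusted p from 0.0545 to 0.159, edgeR), and that of bmpr1bb without any but qKO pool 3 and control pool 2 (0.30 to 0.37, adjusted p from 0.0517 to 0.0853, edgeR). That of chrd was lost without any of qKO pools 3, 4 and 5 and control pools 1, 2, 4 and 5 (0.28 to 0.35, adjusted p from 0.0557 to 0.105, edgeR). That of sost was lost without any of qKO pools 1, 4 and 5 and control pools 2, 3, 4 and 5 (-0.24 to -0.19, adjusted p from 0.0541 to 0.0923, edgeR). The summed, split and left-out fits hold fewer samples, and the cause of the changed calls was not tested. Counts limit bmp10, at 4 to 39 per pool, and bmp7a, at 9 to 191.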

Other observations

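The reads on all 7 ligands together made up 42.2, 39.5, 48.2, 50.2 and 48.4 CPM in qKO pools 1 to 5, against 50.6, 49.5, 45.4, 47.8 and 52.0 CPM in control pools 1 to 5. With this scaling by TMM, the 2 lowest pools were qKO pools 1 and 2, and the remaining qKO pools lay among the controls. With library totals, control pool 3 (41.0 CPM) lay below qKO pool 1 (42.2 CPM). There qKO pool 4 (54.7 CPM) lay above the highest control (51.1 CPM). No test was made on this sum. Cartilage and bone markers numbered 5, of which 2 were called higher, 1 was called lower and 2 were not called (median 0.06). The 2 higher ones, matn1 and col2a1a, encode matrix proteins of cartilage. They averaged 665 and 3210 CPM in qKO pools and 371 and 2260 CPM in controls. Their log2 fold changes were 0.84 and 0.51 (adjusted p = 0.000168 and 0.0186, edgeR). The call of col2a1a was lost without control pool 4 or 5 (0.43 to 0.47, adjusted p from 0.0506 to 0.0527, edgeR). The hypertrophic cartilage and bone gene col10a1a had a log2 fold change of -0.30 (adjusted p = 0.0195, edgeR), lost without qKO pool 5 (adjusted p = 0.0514, edgeR). It was -0.13 in pools 1 and 2, where it did not pass (adjusted p = 0.390, edgeR), and -0.45 in pools 3 to 5. The skin keratin gene krt5 averaged 2090 CPM in qKO pools and 3930 CPM in controls (log2 fold change -0.91, adjusted p = 0.000386, edgeR). It fell most of 3 skin markers, of which 2 were called (median -0.43, weakest -0.09). The call of krt4 was lost without any of 6 libraries (-0.44 to -0.35, adjusted p from 0.0678 to 0.0907, edgeR). In qKO pools 1 and 2 krt4 stood at 7650 and 7700 CPM, against 8100 and 7670 CPM in control pools 1 and 2. Over the alternative settings its log2 fold change ranged from -0.74 to -0.04 (adjusted p of up to 0.828, edgeR).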
